A study of Sus scrofa with 8 samples.

Results

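Eph receptors form the largest family of receptor tyrosine kinases, and their ligands, the ephrins, are themselves bound to the surface of the neighbouring cell. A-class receptors mainly bind A ephrins, which are held in the membrane by a lipid anchor, and B-class receptors mainly bind B ephrins, which cross the membrane and have a cytoplasmic tail. Contact between cells therefore signals into both of them, and in embryos this signalling is known for repelling cells and axons, sorting cells and setting tissue boundaries. Described here are 10 pig genes of this family, EPHA2, EPHA3, EPHA4, EPHA7, EPHB2 and EPHB4 among the receptors and EFNA1, EFNA5, EFNB1 and EFNB2 among the ligands. They were taken by symbol from the 24358 genes of the count table, and each symbol stood on 1 gene identifier. Coordinates are those of the count table, on the Sscrofa11.1 assembly. The other 12 genes of the family with a named identifier are reported beside them.

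RNA-seq was done on porcine induced pluripotent stem cells (piPSCs) in 2 groups of 2 libraries. The IRF-1 overexpressing cells (replicates 1 and 3) were DOX-hLIF-2i piPSCs transfected with PB-CAG-IRF1-Flag, a transposon vector that drives Flag-tagged interferon regulatory factor 1 from the CAG promoter. The control cells (replicates 6 and 8) were the same kind of piPSCs. The methods describe controls transfected with PB-CAG-Flag and selected with puromycin like the overexpressing cells, whereas the series description calls the controls WT. If they were WT, the vector and the selection cannot be told apart from IRF-1. All cells had been reprogrammed from embryonic fibroblasts with doxycycline-inducible OCT4, SOX2, KLF4 and MYC, stayed dependent on these transgenes, and were grown on feeder cells with LIF, CHIR99021 (a GSK3 inhibitor) and PD0325901 (a MEK inhibitor). Feeders were depleted before RNA extraction by letting them attach. The labels give IRF-1 overexpression as the genotype of all 4 libraries, and the split into overexpressing and control cells follows the study's own description of the library numbers. The labels also name another culture system (LCDMV). Neither source says which of the established lines was transfected or whether the 2 libraries of a group came from separate transfections, so the p-values below measure the spread between these libraries, which may be technical.

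The libraries held 24923319 and 20858333 counts in the overexpressing cells and 15925429 and 17097669 in the control cells. Mitochondrial genes made up 8.62% and 7.57% of the counts with overexpression and 6.29% and 6.68% in the controls, without overlap. IRF1 itself was examined first as a check of the group assignment. IRF1 counts were 8206 and 5485 with overexpression and 55 and 56 in the controls. The groups were far apart, and the log2 fold change was 6.46 (standard error 0.21, edgeR adjusted p = 3.65e-05). Of the markers written down for pluripotent stem cells, 7 of 14 had a named identifier. Per kb of exon LIN28A, an RNA-binding protein, was the most abundant in all 4 libraries, and LIN28B, CDH1, EPCAM, ESRRB and DNMT3B were counted in every library, whereas NANOG had between 5 and 11 counts. Of the 6 tested, 3 were lower, against 10.6% of all tested genes, and 3 were not called. LIN28A, ESRRB and CDH1 fell (log2 fold changes -1.34, -4.19 and -2.25, edgeR adjusted p = 0.00146, 0.000246 and 0.00676). LIN28B, EPCAM and DNMT3B lay above the controls without overlap, as did 34.8% of all tested genes, and were not called. Their log2 fold changes were 0.20, 0.21 and 0.27 (edgeR adjusted p = 0.328, 0.574 and 0.297). POU5F1, SOX2 and SALL4 were among those not analysed here.

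Of the 10 Eph receptor and ephrin genes, all of which were tested, 6 fell in the cells that overexpressed IRF-1. A gene was called where its adjusted p was under 0.05 and it differed at least 2-fold, and those called lower were EPHA2, EPHA3, EPHA7, EPHB4, EFNA1 and EFNA5. Over the whole table of 13250 tested genes, 10.6% were called lower and 8.61% higher. EFNB1 and EFNB2 had adjusted p-values under 0.05 with smaller fold changes, so that 8 of 10 were lower when no fold minimum was set, against 15.5% of all tested genes. EPHA4 and EPHB2 did not pass the test. None of the 10 was called higher with edgeR, DESeq2 or limma-voom, and 0 were higher at an unadjusted p under 0.05 in edgeR. When the fold change was tested against 2-fold (glmTreat), 2 of the 10 were called lower, EFNA1 and EPHA3, and 603 of all tested genes. In all 10 genes both overexpressing libraries lay below both controls, a separation that 33.8% of all tested genes showed in this direction and 34.8% in the other. The median log2 fold change of the 10 was -1.16, and that of all tested genes was 0.00 (-0.0016). The 10 genes were chosen with earlier results of these data known, so these shares and medians are no test of the family. Of the 9 other family genes tested, 1 was lower and 2 were higher, with a median of -0.33. In bulk RNA, fewer cells that express a gene and less RNA per cell cannot be told apart.

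**Figure D1:**
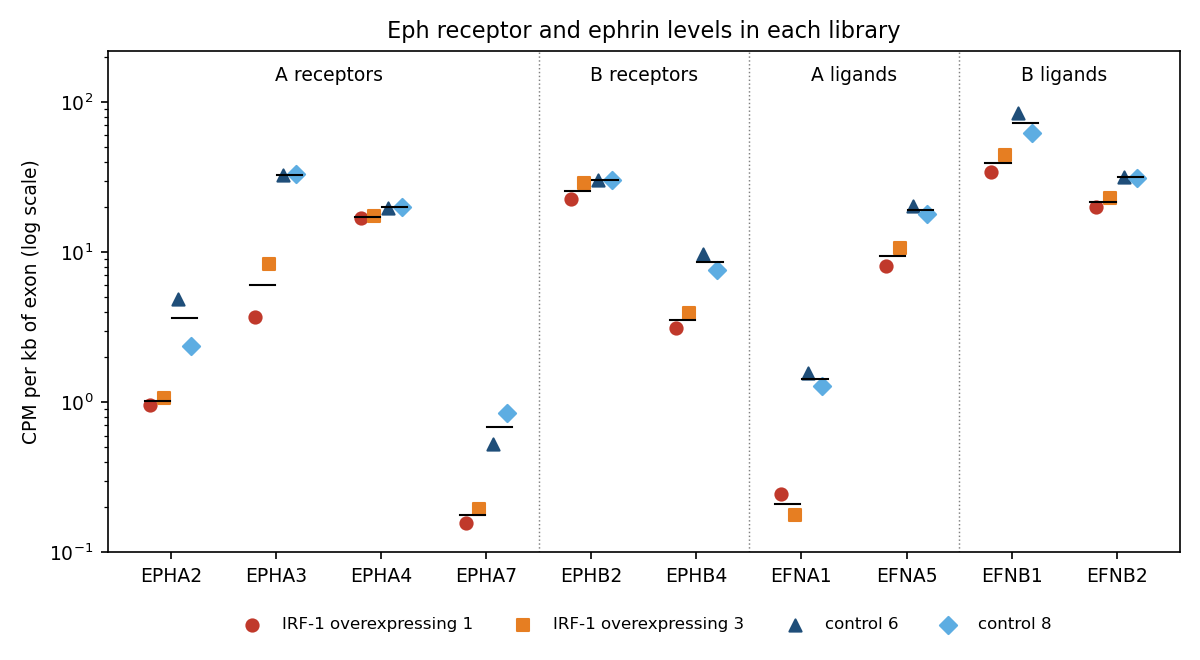
Level of each gene in each library, as CPM (counts scaled by library total and TMM factor) per kb of exon on a log axis, with black lines for the group means of 2 libraries. Both overexpressing libraries lie below both controls for all 10 genes, with a narrow gap for EPHA4 (17.4 against 19.8) and EPHB2 (28.8 against 30.3).

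Among the A-class receptors, EPHA3 changed most in absolute level. This receptor, found on mesenchymal cells and on retinal axons, binds ephrin-A5 with high affinity. EPHA3 (ENSSSCG00000026130, chromosome 13, 166591686 to 166942921, minus strand) was at 24.5 and 55.7 CPM (counts scaled by library total and TMM factor) in the overexpressing libraries and at 218 and 219 CPM in the controls. The controls were nearly equal, and the overexpressing libraries differed from each other by more than 2-fold while staying far below them. The gene fell 5.45-fold, a log2 fold change of -2.45 (standard error 0.341, 95% interval -3.24 to -1.65, edgeR adjusted p = 0.002). Its size depended on the overexpressing libraries, with -3.15 without replicate 3 and -1.96 without replicate 1.

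EPHA2 (ENSSSCG00000003471, chromosome 6, 75249935 to 75280107, minus strand), a receptor of epithelial and pluripotent cells whose main ligand is ephrin-A1, was at 6.24 and 6.92 CPM in the overexpressing libraries. Its controls stood at 31.9 and 15.3 CPM, so here it was the control libraries that differed 2-fold. EPHA2 fell 3.59-fold (log2 fold change -1.84, standard error 0.351, 95% interval -2.66 to -1.03, edgeR adjusted p = 0.00716), and without control replicate 6 the log2 value was -1.22. EPHA7 (ENSSSCG00000004336, chromosome 1, 60770686 to 60944126, minus strand), a receptor best known from the developing nervous system, was counted at the lowest level of the 4 receptors, with 30 and 31 counts against 63 and 113. These counts correspond to 1.21 and 1.49 CPM in the overexpressing libraries and 4.03 and 6.46 CPM in the controls, and the groups did not overlap. Its log2 fold change was -1.96 (standard error 0.405, 95% interval -2.90 to -1.02, edgeR adjusted p = 0.00995), and the call was lost without overexpressing replicate 1 although the log2 value was still -1.80 (adjusted p = 0.0679, with a range of 0.00319 to 0.0679 over the libraries left out).

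EPHA4 (ENSSSCG00000016230, chromosome 15, 123358605 to 123503130, minus strand) differs from the other A receptors in that it binds ephrins of both classes. It was at 74.6 and 77.3 CPM in the overexpressing libraries and at 87.9 and 89.3 CPM in the controls. The replicates were close within each group and the gap between groups was small. The log2 fold change was -0.22 (standard error 0.132, edgeR adjusted p = 0.249), and its 95% interval of -0.53 to 0.08 does not reach the 2-fold change used as the minimum.

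The mix of A receptors therefore differed between the groups, described here per kb of exon so that genes can be compared with each other. In the control libraries EPHA3 stood at 32.8 and 33.0 CPM per kb and EPHA4 at 19.8 and 20.1, a ratio of 1.65 and 1.64. In the overexpressing libraries EPHA3 was at 3.69 and 8.39 CPM per kb and EPHA4 at 16.8 and 17.4, a ratio of 0.219 and 0.482. EPHA3 thus made up 56.5% and 58.6% of the summed level of the 4 A receptors in the controls, and 17.1% and 31.0% in the overexpressing cells. EPHA4 made up 34.2% and 35.7% of that sum in the controls and 77.8% and 64.3% in the overexpressing cells, while its own level was no higher there. The sum itself was 57.2 ± 1.19 CPM per kb in the controls against 24.3 ± 3.85 with overexpression (SD, n = 2 for each). With 2 libraries against 2, an exact two-sided permutation test of such a single value cannot give a p below 0.333, so these sums and shares are given as descriptions.

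Both B-class receptors of the set were well expressed. EPHB4 (ENSSSCG00000007675, chromosome 3, 8667166 to 8732114, minus strand), the venous receptor of ephrin-B2 in blood vessels, was at 26.1 and 32.9 CPM in the overexpressing libraries and at 81.4 and 63.1 CPM in the controls. The groups were clearly apart. EPHB4 fell 2.45-fold (log2 fold change -1.29, standard error 0.19, 95% interval -1.74 to -0.85, edgeR adjusted p = 0.0025). Its log2 value lay between -1.46 and -1.10 with each library left out. When tested against 2-fold, EPHB4 was not called (glmTreat adjusted p = 0.177). Of its 8350 exon bases, 378 are shared with ZAN on the opposite strand. Reads in that stretch cannot be assigned with certainty, since the strand setting of the counting is not given in the sources used here.

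EPHB2 (ENSSSCG00000003527, chromosome 6, 80649143 to 80843567, plus strand), a receptor of ephrin-B ligands in axon guidance and in cell sorting of the gut, was at 95.7 and 122 CPM in the overexpressing libraries and at 129 and 128 CPM in the controls. Overexpressing replicate 3 lay just under the controls and replicate 1 further below. The log2 fold change was -0.24 (standard error 0.159, 95% interval -0.61 to 0.13, edgeR adjusted p = 0.305). Of the summed level of all 5 B receptors, EPHB2 made up 65.4% and 68.8% in the controls and 64.2% and 68.5% in the overexpressing cells, ranges that overlap. Of EPHB2 and EPHB4 alone it made up 75.7% and 80.0% against 87.9% and 88.0%. The sum of these 2 genes was 40.1 and 37.8 CPM per kb in the controls and 25.7 and 32.8 with overexpression, without overlap. The ratio of the sum of the 4 A receptors to the sum of EPHB2 and EPHB4 was 1.45 and 1.49 in the control libraries and 0.84 and 0.827 in the overexpressing ones.

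Both A-class ligands of the set fell, from very different levels. EFNA1 (ENSSSCG00000006530, chromosome 4, 94665567 to 94674071, minus strand), the main ligand of EPHA2, was counted 31 and 19 times with overexpression and 125 and 114 times in the controls. Per kb of exon this was 0.244 and 0.179 CPM against 1.56 and 1.27, with no overlap. Its log2 fold change of -2.73 (standard error 0.37, 95% interval -3.59 to -1.87, edgeR adjusted p = 0.00178) was the lowest of the 10, a 6.65-fold decrease, although its interval overlaps those of EPHA3, EPHA7 and EPHA2.

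EFNA5 (ENSSSCG00000036520, chromosome 2, 112534950 to 112817478, minus strand), which shapes the map of retinal axons in the midbrain, was at 41.6 and 54.7 CPM in the overexpressing libraries and at 104 and 91.6 CPM in the controls. Both overexpressing libraries were below both controls. EFNA5 fell 2.03-fold, a log2 fold change of -1.02 (standard error 0.174, 95% interval -1.43 to -0.62, edgeR adjusted p = 0.00446) that lies at the limit for a call. The call was lost without overexpressing replicate 1 (-0.83) and without control replicate 6 (-0.93). Of the summed level of all 5 A ligands, EFNA5 held 62.6% and 61.6% in the controls and 50.1% and 60.6% with overexpression, whereas of EFNA1 and EFNA5 alone it held 92.8% and 93.3% against 97.1% and 98.4%. Together EFNA1 and EFNA5 stood at 20.5 ± 1.94 CPM per kb in the controls against 9.59 ± 1.76 with overexpression (SD, n = 2 for each).

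The B-class ligands were the most abundant class, and EFNB1 and EFNB2 did not reach the fold minimum. EFNB1 (ENSSSCG00000032728, chromosome X, 54949094 to 54961361, plus strand), which sets cell boundaries in the skull and limbs, had the highest level per kb of all 10 genes in every library. It was at 132 and 172 CPM in the overexpressing libraries and at 328 and 240 CPM in the controls. All overexpressing values lay below the controls, which differed from each other. The log2 fold change was -0.90 (standard error 0.199, 95% interval -1.36 to -0.44, edgeR adjusted p = 0.0128), short of the fold minimum. It passed that minimum without overexpressing replicate 3 (-1.10) and without control replicate 8 (-1.10), and was -0.66 without control replicate 6. Its adjusted p was 0.116 without overexpressing replicate 1, in a range of 0.000564 to 0.116 over the libraries left out.

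EFNB2 (ENSSSCG00000009535, chromosome 11, 74184992 to 74233460, minus strand), the arterial ligand of EPHB4, was at 101 and 116 CPM in the overexpressing libraries and at 159 and 158 CPM in the controls. The groups did not overlap and the controls were nearly equal. Its log2 fold change was -0.55 (standard error 0.142, 95% interval -0.88 to -0.22, edgeR adjusted p = 0.0236), a 1.46-fold difference. Without overexpressing replicate 1 its adjusted p was 0.276, and without replicate 3 it was 0.0874, in a range from 0.0171 to 0.276 over the libraries left out. Summed, EFNB1 and EFNB2 stood at 105 ± 16.1 CPM per kb in the controls against 60.6 ± 9.41 with overexpression (SD, n = 2 for each).

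**Figure D2:**
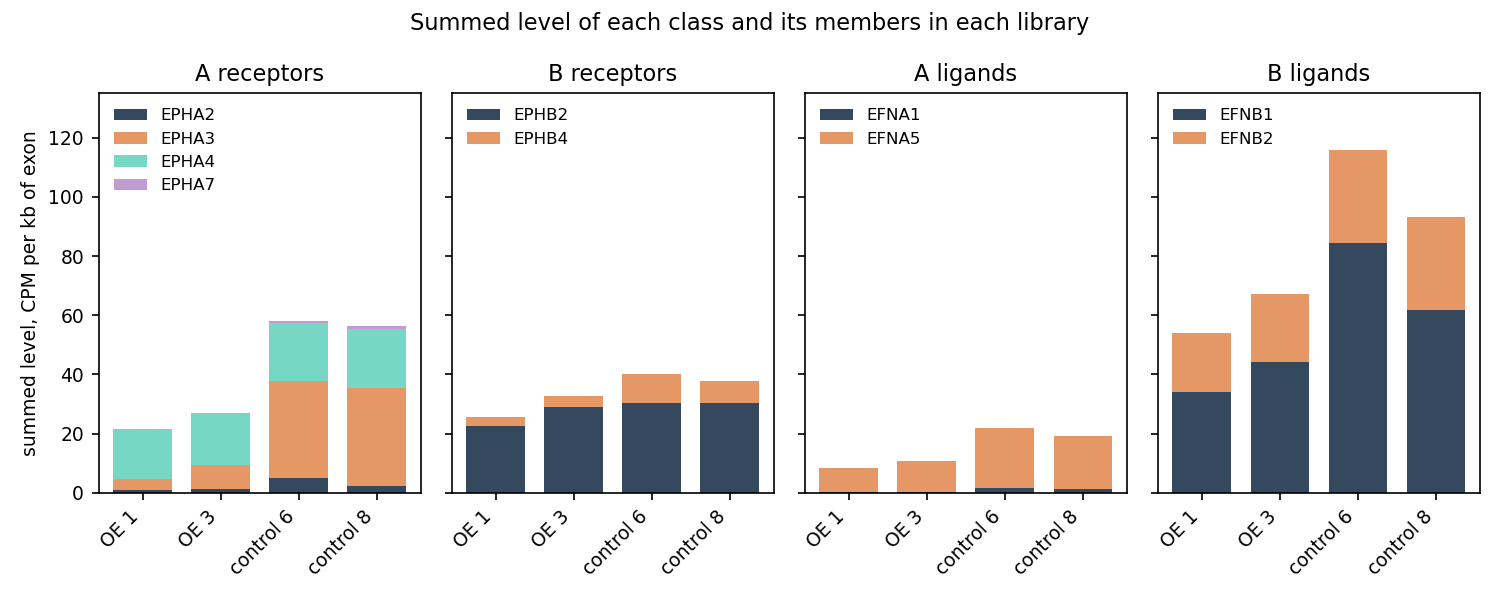
Summed level of the 4 A receptors, 2 B receptors, 2 A ligands and 2 B ligands in each library, in CPM per kb of exon, with bars divided by gene (OE, IRF-1 overexpressing). The A receptors stand at 58.0 and 56.3 in the controls and 21.6 and 27.1 in the overexpressing libraries, and most of that gap lies in EPHA3.

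Ordered by level per kb, the control libraries had EFNB1 first, followed by EPHA3, EFNB2 and EPHB2, which lay between 30.3 and 33.0 CPM per kb. EFNA5 and EPHA4 came next with overlapping ranges (17.8 to 20.3 and 19.8 to 20.1), and then EPHB4, EPHA2, EFNA1 and EPHA7. In both overexpressing libraries EPHA3 stood at rank 6 in place of rank 2, and EPHB2 and EPHA4 at ranks 2 and 4. There the ranges of EPHB2 and EFNB2, of EFNA5 and EPHA3, of EPHA3 and EPHB4, and of EFNA1 and EPHA7 overlapped, although of these pairs only EFNA1 and EPHA7 changed places between the libraries. By class, among the genes described in full, 3 of 4 A receptors and 1 of 2 B receptors were called lower. Of the ligands described in full, 2 of 2 A ligands and 0 of 2 B ligands were called lower. Over the whole family, 3 of 6 tested A receptors and 1 of 5 B receptors were lower, with 1 higher in each. There, 2 of 5 A ligands and 1 of 3 B ligands were lower and 0 were higher. Of all tested genes, 10.6% were called lower and 8.61% higher. Whether the classes differ in their response was not tested.

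Of the other 12 genes of the family, 9 were tested, of which 1 was lower (EFNB3) and 2 were higher (EPHB1 and EPHA8) past the threshold, against 10.6% and 8.61% of all tested genes. EPHA8 had no counts in the controls and could pass the filter on low counts only by being higher. Their median log2 fold change was -0.33, the same with EPHA8 set to its lower bound. EFNB3 (ENSSSCG00000017948, chromosome 12), the ligand of the spinal cord midline, was at 8.97 and 15.1 CPM in the overexpressing libraries and at 37.8 and 20.1 CPM in the controls. The groups did not overlap, but each varied widely. EFNB3 fell, its log2 fold change being -1.27 (standard error 0.354, edgeR adjusted p = 0.0314), but not without control replicate 6 (-0.75, adjusted p = 0.105) or overexpressing replicate 1 (-0.92, adjusted p = 0.151), over a range of 0.00161 to 0.151.

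EPHB1 (ENSSSCG00000024492, chromosome 13), a receptor that steers retinal axons at the optic chiasm, was higher in the overexpressing cells. It was at 14.7 and 16.1 CPM against 7.61 and 7.09 CPM in the controls. Replicates were close in both groups and the groups did not overlap. The log2 fold change was 1.07 (standard error 0.229, edgeR adjusted p = 0.0114), yet the adjusted p was 0.0532 without overexpressing replicate 1 (log2 fold change 1.15) and 0.0699 without replicate 3 (1.00), in a range of 0.0151 to 0.0699. EPHB1 took up 4.67% and 4.59% of the summed level of all 5 B receptors in the controls and 11.9% and 10.9% in the overexpressing cells.

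EPHA8 (ENSSSCG00000003523, chromosome 6), a receptor of the developing midbrain, was counted 18 and 12 times with overexpression and 0 times in both controls, where a count of 0 allows up to 3 counts. With both controls set to 3 counts, it was at least 3.58-fold higher. It passed the filter on low counts only through the overexpressing libraries, and without overexpressing replicate 1 it did not pass. With no filter it was called higher as well. EPHA10, which lacks kinase activity, had 10 and 9 counts against 0 in both controls (at least 2.30-fold higher) and EPHA6 had 5 and 6 against 0 (at least 1.35-fold). Neither was tested after the filter on low counts, though EPHA10 was called higher when no filter was set, and at these counts all 3 stood at or under 0.246 CPM per kb in every library. EPHA5 had at most 2 counts in any library and was not detectable at this depth.

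The remaining members did not pass the test. EPHA1 had 60 and 73 counts with overexpression and 173 and 73 in the controls. Its log2 fold change was -1.36 and its edgeR adjusted p was 0.0748. The EPHA1 value rested on control replicate 6, without which it was -0.50, while it was called lower without control replicate 8, with DESeq2 and with no filter, and 1212 of its 5288 exon bases are shared with ZYX on the opposite strand. EFNA2, also called lower with limma-voom and with no filter, had a log2 fold change of -1.03 (edgeR adjusted p = 0.0558), EPHB3 of 0.40 (0.198), EFNA3 of -0.41 (0.469), EFNA4 of -0.33 (0.453) and the kinase-inactive EPHB6 of -0.09 (0.859). In order of the libraries (overexpressing replicates 1 and 3, control replicates 6 and 8), EFNA2 had 57, 61, 77 and 100 counts and EPHB3 412, 336, 179 and 234. EFNA3 had 56, 36, 39 and 49, and EPHB6 253, 141, 168 and 129. EFNA4 was at 3.0 and 2.61 CPM per kb with overexpression and at 4.29 and 2.75 CPM per kb in the controls. The groups overlapped by CPM in EFNA4 and EPHB6 and not in the others. Of all tested genes, 33.8% were lower and 34.8% higher without overlap. EPHB6 shares 2111 of 7087 exon bases with TRPV6 on the opposite strand.

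Counting all 22 genes of the family, 19 were tested, of which 7 were lower past the threshold (10.6% of all tested genes). Of these 7, 6 were among the 10 genes chosen with earlier results of these data known, and 1 (EFNB3) among the 9 others tested. EPHB1 was higher beside EPHA8, against 8.61% of all tested genes. EFNA1, EFNA3 and EFNA4 lie next to each other on chromosome 4, with 0 other genes of the table between them and gaps of 37553 and 16097 bases. Their log2 fold changes were -2.73, -0.41 and -0.33, and the 95% interval of EFNA1 (-3.59 to -1.87) overlaps neither that of EFNA3 (-1.30 to 0.49) nor that of EFNA4 (-1.02 to 0.37). On chromosome 6, EPHA8 and EPHB2 are 100446 bases apart with 3 genes between them.

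**Figure D3:**
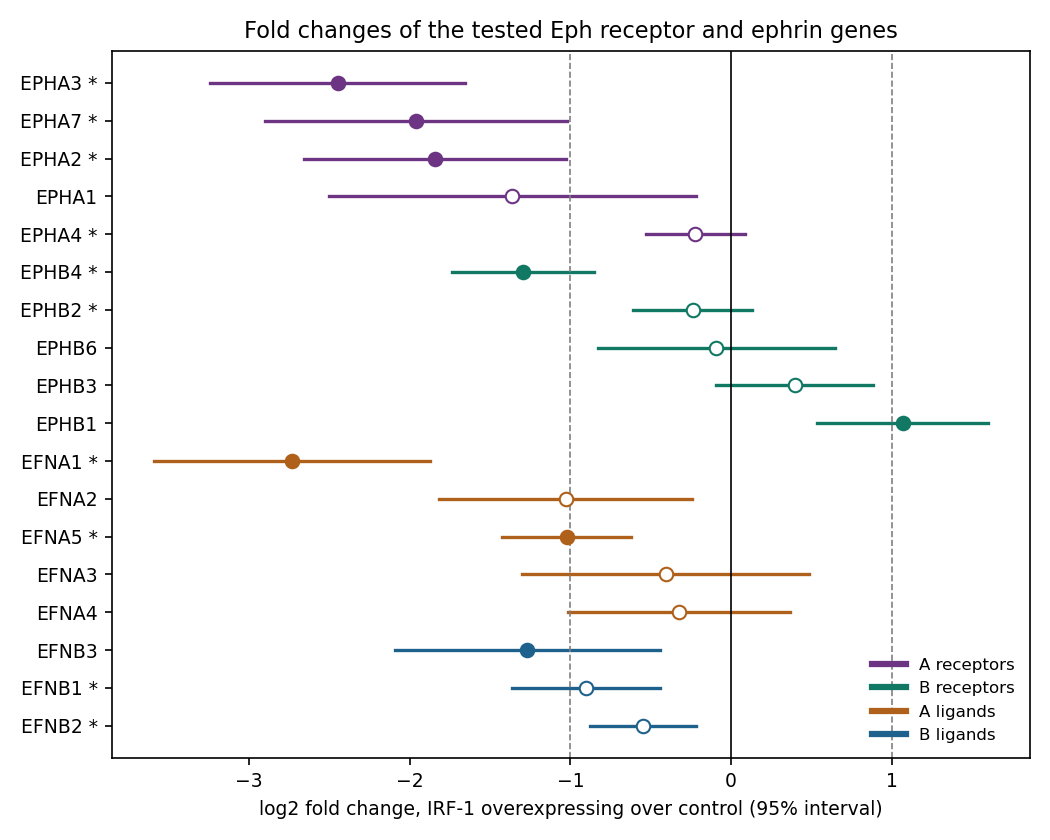
Log2 fold change (IRF-1 overexpressing over control) with its 95% interval from edgeR for 18 of the 19 tested genes, in colours by class, with filled points for genes called at an adjusted p under 0.05 and 2-fold (dashed lines) and asterisks on the 10 genes described in full. EPHB1 is the only filled point to the right of 0, and EPHA8 is not drawn because its controls had no counts.

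Downstream of Eph receptors and ephrins act adaptors, Src-family kinases, and proteases and phosphatases that end the signal. Of 58 genes of the pathway listed from general knowledge, 55 had an identifier and 52 passed the filter. Of these, 6 were called lower and 1 higher, against 10.6% and 8.61% of all tested genes, and 45 were not called. Their median log2 fold change was -0.20.

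NGEF, or ephexin, which binds EPHA4, was the one gene of the list that rose past the 2-fold minimum. It was at 36.6 and 40.2 CPM in the overexpressing libraries and at 7.42 and 5.71 CPM in the controls. Its replicates were close, and its log2 fold change was 2.55 (standard error 0.213, edgeR adjusted p = 0.000374). LYN, a Src-family kinase, had 285 and 236 counts in the controls and 9 and 20 with overexpression. The groups were far apart, and LYN fell with a log2 value of -4.60 (standard error 0.454, edgeR adjusted p = 0.000635). It was -5.42 without overexpressing replicate 3 and -4.02 without replicate 1.

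NCK2, an adaptor that binds phosphorylated ephrin-B tails, was at 47.1 and 67.4 CPM against 169 and 134 CPM in the controls. It fell without overlap of the groups, its log2 fold change being -1.41 (standard error 0.209, edgeR adjusted p = 0.00256). The adaptor SHB fell 2.82-fold (edgeR adjusted p = 0.00311) and LIMK2, a kinase that inactivates cofilin, 2.88-fold (edgeR adjusted p = 0.000864). LIMK2 shares 2639 of 6456 exon bases with PIK3IP1 on the opposite strand and 1000 with an unnamed gene on the same strand, so its counts are uncertain. The others called lower, named after their values were seen, were GRIP2 (-1.32), a PDZ protein that binds ephrin-B tails, and PXN (-1.26), which encodes the focal adhesion protein paxillin.

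Markers of other cell types moved between the same libraries, and their part in the Eph and ephrin results was not tested. The counts for these lists stand against 10.6% lower and 8.61% higher among all tested genes. Of 13 trophoblast markers, 8 were tested, of which 5 were lower and 1 higher. Their summed level was 319 and 1173 CPM in the overexpressing libraries against 15681 and 9620 in the controls, most of it KRT8, and CDX2 had no counts. The endothelial list summed to 3.82 and 7.45 CPM against 60.4 and 66.3. Its most abundant gene was the receptor TEK, while CDH5 and EMCN had at most 1 count in any library, and 2 of 5 tested genes were lower.

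For fibroblasts and feeders the summed level was 1360 and 1111 CPM in the overexpressing libraries and 1470 and 1372 CPM in the controls. VIM made up most of it, 4 of 9 tested genes were lower and 2 higher, and COL5A1, COL6A3 and LUM had at most 3 counts in any library. Chosen after their values were seen, PDGFRB fell (log2 fold change -5.49, edgeR adjusted p = 0.000595), whereas PRRX1 rose (1.62, edgeR adjusted p = 0.00269). Neural markers summed to 824 and 419 CPM in the overexpressing libraries against 303 and 281 in the controls. Of 11 tested, 6 were higher and 1 lower, but NEUROG1 and NEUROG2, with at most 1 count in a control library, could pass the filter on low counts only by being higher. Of these markers, per kb STMN2 was the most abundant except in overexpressing replicate 1, where TUBB3 was. Primitive endoderm markers summed to 455 and 542 CPM against 1197 and 961, with APOE the most abundant per kb in all 4 libraries, 1 of 4 tested genes lower and FOXA2 at 0 counts.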

How the data were processed

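RNA-seq counts of 4 piPSC libraries were analysed. Per the methods and labels, the authors used trim_galore for read filtering, HISAT2 (2.0.4) for mapping to Sus scrofa 11.1, and featureCounts (subread 1.6.4) for counting. The authors deposited whole-number counts for every gene, not normalized, with its exon length in bases. The annotation release, strand setting and handling of multi-mapped reads are not given in the sources used here, so reads in stretches shared by paralogous Eph kinases are uncertain. The 4 ChIP-Seq libraries were not analysed here.

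Symbols came from the table of gene names (14692 of 24358 identifiers). Counts were fitted with edgeR 4.0.16 in R 4.3.3 (TMM, filterByExpr by group, quasi-likelihood test) and p-values adjusted by Benjamini-Hochberg over 13250 genes. The standard error is the size of the log2 fold change over the square root of F, and intervals use the t distribution. CPM is scaled by library total and TMM factor. Before the TMM factor, 1 count was worth 0.0401 to 0.0628 CPM, and 3 counts were taken as the floor, which covers counting error only. Replicate libraries were not copies of each other (chi-square over its degrees of freedom, 17.9 for overexpressing and 31.3 for control cells). The code was tested on simulated data.

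The 10 genes, the lists and the tests were chosen with earlier results of these data known. All 10 are given in full, then every called gene of the rest of the family, and from the pathway list at most 4 called genes at each end of the fold changes. Alternatives were other normalizations and filters, DESeq2 1.42.0, limma-voom (3.58.1), glmTreat, no fold minimum, each library left out, and scaling without 37 mitochondrial and the 10 most abundant genes. Figures were drawn with matplotlib 3.10.9.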

Additional observations from a re-analysis of the deposited data

How the results depend on the processing

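The 6 calls among the 10 genes were the same genes under the other normalizations and filters, DESeq2, limma-voom and the scaling without mitochondrial and top genes, and no normalization moved the median of all genes by more than 0.0073 on the log2 scale. When the fold change was tested against 2-fold with glmTreat, only EFNA1 and EPHA3 of the 10 genes were called (2 lower). Of the other family genes, 0 were lower (0 also at an unadjusted p under 0.05, against 3 in the main edgeR test) and 1 was higher. The higher gene was EPHA8, which could pass the filter on low counts only by being higher. EPHB1 was not called (glmTreat adjusted p = 0.833). Among pathway genes 2 were lower, and of all genes 603 were lower and 611 higher. With no fold minimum, 10 of 52 tested pathway genes were lower and 3 higher. Of all tested genes, 2054 (15.5%) were then lower and 1842 (13.9%) higher. Of the other family genes, 3 were lower with no filter, 2 with DESeq2 and 2 with limma-voom. Of all genes, 1562 of 17823 were lower with no filter, 1316 of 14773 with DESeq2 and 1392 of 13250 with limma-voom. With at least 1 CPM in 2 libraries, where EPHA8 was removed, 1 of the other family genes was higher, against 1064 of 12463. With single libraries left out, which assumes that the lone library varies like the other group, between 4 and 7 of the 10 genes were lower, between 0 and 2 of the other family genes lower and between 0 and 2 higher (with edgeR at an unadjusted p under 0.05, 1 lower and 1 higher without overexpressing replicate 1, and 2 lower without control replicate 6), and between 874 and 1548 of all genes lower and 756 and 1156 higher. EPHB6 (-0.40 to 0.20) and EFNA4 (-0.60 to 0.025), neither called, changed sign, EPHB6 to 0.18 without overexpressing replicate 3. The log2 ratio of the summed level of all 5 A ligands was -0.86 per kb and -0.99 without length correction. Apart from what its construction shows, the cause of each change was not tested. No paired analysis was possible because the replicate numbers of the RNA-seq groups (1 and 3, 6 and 8) are not shared. Depth limits EPHA5, EPHA6, EPHA8 and EPHA10, whose controls lie under 3 counts.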

Other observations

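The control libraries differed from each other in some members of the family and not in others. EPHA2 (31.9 and 15.3 CPM in replicates 6 and 8) and EFNB3 (37.8 and 20.1 CPM) were higher in replicate 6, and EPHA7 (4.03 and 6.46 CPM) was lower there. EPHA3, EPHA4, EPHB2 and EFNB2 agreed between these libraries, at 218 and 219, 87.9 and 89.3, 129 and 128, and 159 and 158 CPM. Among the markers of other cell types, KRT8 (12007 and 7485 CPM), PDGFRB (126 and 55.9 CPM) and APOE (683 and 391 CPM) were also higher in replicate 6. These genes were chosen after their values were seen, and with 1 library on each side the differences have no test.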
